A study of Homo sapiens with 12 samples.

Results

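The genes described here are VAV3, its relatives VAV1 and VAV2, the other RAC exchange factors TIAM1, TIAM2, PREX1, DOCK1 and DOCK4, and the GTPases RAC1 and RAC2. These 10 genes were taken by symbol from a table of 56609 gene symbols, and all 10 were found. VAV3 was chosen because its response to the drug JQ1 differed between genotypes in these same libraries, so its levels are given as a description without a test. The other 9 were chosen by function. RNA was sequenced from A375, an established human melanoma cell line, with the wild-type genotype (WT) or a CRISPR/Cas9 knockout of MAPKAPK2. Each genotype received JQ1 at 500 nM or its solvent DMSO over 48 h, giving 4 groups of 3 libraries: wild-type DMSO, wild-type JQ1, knockout DMSO and knockout JQ1. MAPKAPK2 encodes the stress-activated kinase MK2, and the study asked how its loss affects the response to BET bromodomain inhibitors, the drug class of JQ1. Titles name the drug-free samples untreated, whereas their treatment is given as DMSO. The labels do not say whether the knockout is 1 clone or a pool, nor whether replicates were separate cultures, so p-values measure the spread between these libraries, which may be technical.

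RAC proteins are small GTPases that switch between an inactive GDP-bound and an active GTP-bound form, and in their active form they drive the branched actin networks of the leading edge of moving cells. Guanine nucleotide exchange factors (GEFs) turn them on by releasing GDP. The VAV proteins, TIAM1, TIAM2 and PREX1 do this with a DBL homology domain, whereas the DOCK proteins use an unrelated catalytic domain and work with ELMO partners. VAV1 and RAC2 are known from blood cells, VAV2 and VAV3 are expressed more widely, and PREX1 is known for a role in the migration of melanocytes and melanoma cells.

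The libraries held between 25316565 and 34594025 rounded counts. MAPKAPK2 averaged 89.6 CPM (scaled counts per 1e+06) in wild-type DMSO and 117 in wild-type cells with JQ1, against 12.4 and 14.4 in the knockout groups. Knockout JQ1 replicate 3 stood apart from its replicates, with a chi-square per degree of freedom of 25.5 and 26.8 against them, where all other replicate pairs gave 3.32 to 7.58. Values without it are given below where it moved a result. Of the melanoma markers, SOX10, S100B and MITF were expressed (437, 29.3 and 43.1 CPM in wild-type DMSO), and in knockout DMSO they were at 438, 40.03 and 28.8 CPM. With JQ1 they were at 563, 36.7 and 39.2 CPM in wild type and 563, 48.7 and 30.5 CPM in the knockout. The 7 melanoma and melanocyte markers summed to 501 to 516 CPM in wild-type DMSO and 587 to 677 in wild-type JQ1. In the knockout these 7 summed to 460 to 535 CPM in DMSO and 560 to 766 with JQ1. The pigment genes MLANA, PMEL, TYR and DCT had group means of at most 1.18 CPM. The 5 markers of dedifferentiated melanoma summed to 434 to 453 CPM in wild-type DMSO, 345 to 369 in knockout DMSO, 710 to 783 in wild-type JQ1 and 611 to 658 in knockout JQ1. Most of this sum was AXL and NT5E (247.5 and 165.2 CPM in wild-type DMSO). NGFR fell with JQ1 in wild type, from 8.01 to 4.47 CPM. The 4 endothelial markers summed to 9.91 to 12.5 CPM in wild-type DMSO and 4.04 to 5.13 in knockout DMSO. With JQ1 they summed to 12.1 to 13 in wild type and 6.09 to 8 in the knockout. None of the 4 was at 0 in any group, but most of the sum was KDR (9.32, 2.92, 11.5 and 5.60 CPM in that order). PECAM1, CDH5 and VWF had group means of at most 1.05 CPM. The means of VWF and CDH5 were lower with JQ1 in both genotypes. Several of these markers move with the groups compared, and the sums move largely through SOX10, AXL, NT5E and KDR. The part of the markers in the results was not tested. The 7 blood cell markers summed to between 0.893 and 1.59 CPM in every library. In these cultures, fewer cells with a transcript and less transcript per cell cannot be told apart.

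VAV3 lies on the minus strand of chromosome 1 (GRCh38, GENCODE release 29, chr1:107571160-107965144). GENCODE lists 15 transcripts of it, 5 of them protein coding. The longest, VAV3-202, has 4990 nt. VAV3-203, a short protein-coding transcript of 1293 nt, starts inside the gene at position 107688504. RefSeq's promoter table (GRCh38.p14) held 8 of the 10 members. Its entry for VAV3 belongs to this internal start and not to the start of the long transcripts. The 250 bases before the listed start are shown for VAV3 and, for comparison, for its relative VAV2, for DOCK4, which was also highest in knockout DMSO and lower with JQ1, and for PREX1, which moved the other way with JQ1. Capitals mark matches, on either strand and with overlapping matches counted, to 5 motifs: the E-box CACGTG, the AP-1 motif TGANTCA, the cyclic AMP response element TGACGTCA, the GC box GGGCGG and the TATA motif TATAAA.
VAV3 (chr1:107688500-107688749, minus strand): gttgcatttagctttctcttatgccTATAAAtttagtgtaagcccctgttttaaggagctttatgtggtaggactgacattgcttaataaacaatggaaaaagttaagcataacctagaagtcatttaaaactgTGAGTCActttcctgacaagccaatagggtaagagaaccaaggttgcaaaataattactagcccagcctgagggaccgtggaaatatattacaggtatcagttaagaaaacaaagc
VAV2 (chr9:133992325-133992574, minus strand): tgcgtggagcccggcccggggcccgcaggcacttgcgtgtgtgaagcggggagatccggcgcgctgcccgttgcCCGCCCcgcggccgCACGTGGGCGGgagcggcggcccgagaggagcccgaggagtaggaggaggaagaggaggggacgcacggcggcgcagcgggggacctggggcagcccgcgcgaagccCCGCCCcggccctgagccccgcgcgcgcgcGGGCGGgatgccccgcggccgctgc
DOCK4 (chr7:112206400-112206649, minus strand): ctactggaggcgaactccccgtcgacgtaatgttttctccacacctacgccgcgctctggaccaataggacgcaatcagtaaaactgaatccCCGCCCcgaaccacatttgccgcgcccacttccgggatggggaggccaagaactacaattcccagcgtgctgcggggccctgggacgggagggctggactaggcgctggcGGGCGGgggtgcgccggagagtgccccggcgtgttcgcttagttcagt
PREX1 (chr20:48828000-48828249, minus strand): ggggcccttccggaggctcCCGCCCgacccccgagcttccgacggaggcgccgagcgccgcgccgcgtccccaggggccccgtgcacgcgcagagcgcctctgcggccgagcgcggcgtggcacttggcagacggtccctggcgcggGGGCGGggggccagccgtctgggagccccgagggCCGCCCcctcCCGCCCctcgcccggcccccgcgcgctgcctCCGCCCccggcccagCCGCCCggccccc

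The VAV3 window differed in composition from the other 3. It was 37.2% G and C with 1 CpG, while VAV2 had 81.2% and 40 CpGs, PREX1 84.8% and 39, and DOCK4 63.6% and 24. The medians over 35116 promoters were 58% and 11 CpGs. Another member, TIAM2, has several listed starts, which are not shown. Their windows ran from 46.4% with 2 CpGs and 0 GC boxes to 71.2% with 28 CpGs and 4 GC boxes. The VAV3 window held 1 TATA motif, found in 10.7% of promoters of that length, and 1 AP-1 motif, found in 6.57%. It held no GC box, a motif present in 42.6% of promoters, whereas PREX1 had 6, VAV2 4 and DOCK4 2. VAV2 also had 1 E-box (6.34% of promoters). These are matches of letters and say nothing of whether a factor binds.

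VAV3 was highest in the knockout without drug and low in both genotypes with JQ1. In wild-type DMSO the 3 libraries were at 3.46, 3.19 and 4.07 CPM, and with JQ1 they were at 1.26, 0.742 and 0.917. In knockout DMSO they were at 13.8, 11.1 and 13.4 CPM, and with JQ1 at 0.571, 1.06 and 0.886. Without drug all 3 knockout libraries lay above all 3 wild-type libraries. With drug the genotypes overlapped, and each genotype lay below its own DMSO libraries. The JQ1 values rest on low counts, 15 to 40 rounded counts per library, against 90 to 148 in wild-type DMSO and 322 to 430 in knockout DMSO.

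**Figure D1:**
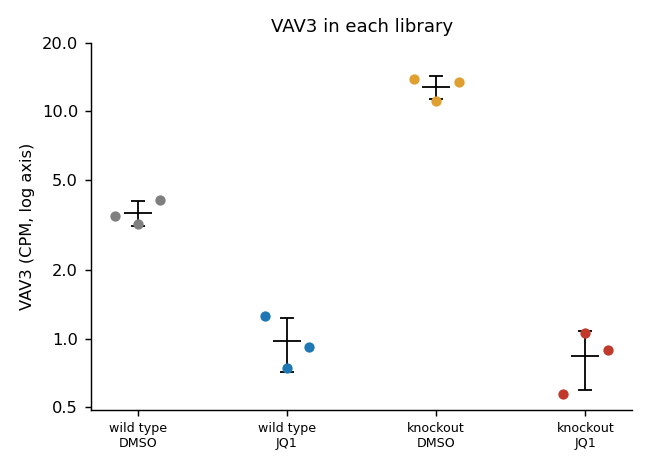
VAV3 level in each library (points, CPM on a log axis) for the 4 groups, with the mean and SD of 3 libraries as a bar. Knockout DMSO lies highest (11.1 to 13.8 CPM), wild-type DMSO next (3.19 to 4.07), and both JQ1 groups lie between 0.571 and 1.26 CPM.

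In the fit over all genes, VAV3 was 3.55-fold higher in the knockout than in wild type without drug (log2 fold change 1.83, SE 0.17). Under JQ1 the genotype difference was -0.23 (SE 0.26, 95% interval -0.77 to 0.32). JQ1 left 27.4% of the DMSO level in wild type (log2 fold change -1.87, SE 0.21) and 6.6% in the knockout (-3.92, SE 0.21). The difference between these responses, by which the gene was chosen, was -2.06 (SE 0.31). With any 1 library left out it ran from -2.23 to -1.83. The contrasts share groups: the knockout effect in DMSO and the drug effect in wild type both use the wild-type DMSO libraries.

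The authors' second table gives a normalized signal in which each rounded count appears divided by a number that varies by gene and by library, called the factor here. For VAV3 this factor, divided by the library's median factor over genes, was 0.894, 0.826 and 0.832 in wild-type DMSO and 0.832, 0.721 and 0.794 in knockout DMSO. It was 1.04, 1.52 and 0.923 in wild-type JQ1 and 1.38, 1.52 and 1.12 in knockout JQ1. Every DMSO library was therefore below every JQ1 library. The same ratio stayed between 0.937 and 1.12 for the 7 other members tested. Among 11464 genes with a mean level at least that of VAV3, 0.14% had a factor that varied more over the libraries. Over all 20988 tested genes with a factor in every library the share was 1.38%. The mean of VAV3 is raised by knockout DMSO, whereas its JQ1 libraries hold few counts. How the authors made the factor is not given in the sources used here. On their normalized signal VAV3 read 115, 114 and 146 in wild-type DMSO, 36.4, 14.7 and 29.9 in wild-type cells with JQ1, 499, 456 and 511 in knockout DMSO and 12.5, 21.0 and 23.7 in knockout JQ1. With these factors as offsets in the count model, the log2 fold change with JQ1 was -2.24 in wild type and -4.67 in the knockout, and their difference was -2.43. Which of the VAV3 transcripts gave the counts is not part of the deposited values, and a shift between long and short transcripts was not tested.

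**Figure D2:**
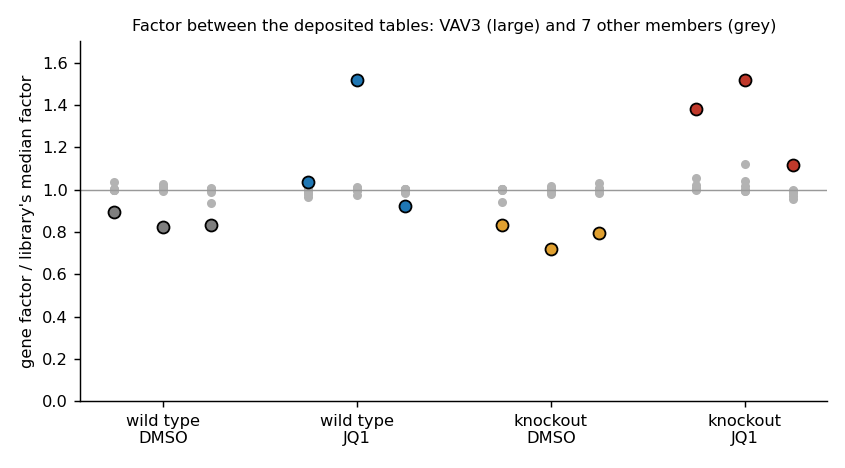
Factor between the authors' count and normalized tables, divided by the library's median factor, for VAV3 (large points) and 7 other members (grey), with 3 libraries in each of the 4 groups. VAV3 runs from 0.721 to 1.52 and lies lower in every DMSO library than in any JQ1 library, while the grey points stay between 0.937 and 1.12.

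VAV3's nearest well-expressed neighbours differed less between the 4 groups than VAV3 did. Its protein-coding neighbour PRMT6, an arginine methyltransferase, was at 47.5 CPM in wild-type DMSO and 46.3 with JQ1, and in the knockout at 48.6 and 46.4. SLC25A24, a mitochondrial carrier on the other side, was at 48.9, 41.0, 42.1 and 39.8 CPM. In DMSO the knockout effect was 0.03 (SE 0.06, adjusted p 0.833) for PRMT6 and -0.21 (SE 0.11, adjusted p 0.303) for SLC25A24 by the quasi-likelihood F test of edgeR, adjusted after Benjamini and Hochberg over all genes. By the same test the JQ1 effect on SLC25A24 was -0.25 in wild type (SE 0.11, adjusted p 0.0896) and -0.08 in the knockout (adjusted p 0.605). For PRMT6 it was -0.04 and -0.07 (adjusted p 0.686 and 0.427). NTNG1, next to VAV3, was lower in the knockout under JQ1 (-0.82, SE 0.21, adjusted p 0.0261), where 8.57% of all genes were called. Its adjusted p was 0.328 to 0.744 in the other comparisons and the interaction. NBPF6 fell with JQ1 in both genotypes (-0.76 in wild type and -0.84 in the knockout, adjusted p 0.02 and 0.018), where 33.1% and 34.4% of all genes were called. Both genes were scarce, with group means of 1.08 to 1.9 CPM for NTNG1 and 0.831 to 1.98 CPM for NBPF6. These neighbours were chosen after the values of VAV3 were known. VAV3-AS1, the antisense gene over the start of the long transcripts, had 0 counts in all 12 libraries.

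By likeness to VAV3 over the 12 libraries, on log2 CPM and among 11754 genes that reached 5 CPM in a group, the closest genes were RAPGEF4 (Pearson r 0.977), AC134978.1 (0.975), GPATCH4 (0.974), AC064875.1 (0.973) and NOB1 (0.97). These r values describe libraries that share the group differences and carry no test. RAPGEF4, an exchange factor of another GTPase, RAP1, went with JQ1 from 5.67 ± 0.614 to 2.22 ± 0.223 CPM in wild type and from 10.2 ± 0.394 to 2.23 ± 0.442 CPM in the knockout (SD, n = 3). SLIT2 (-0.978), VLDLR (-0.978) and TMEM47 (-0.975) ran most nearly opposite. VLDLR, a lipoprotein receptor, was at 10.3 CPM in wild-type DMSO and 6.61 in knockout DMSO, and at 16.4 and 16 with JQ1.

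VAV2, the widely expressed relative of VAV3, was not lower with JQ1 in either genotype by the test. Its libraries were at 39.9, 41.2 and 41.9 CPM in wild-type DMSO, 41.3, 39.97 and 37.6 in wild-type cells with JQ1, 42.5, 46.2 and 48.1 in knockout DMSO and 42.2, 47.3 and 56.7 in knockout JQ1. JQ1 and DMSO libraries overlapped in both genotypes, while all knockout libraries lay above the wild-type libraries of the same treatment. The knockout difference was 0.15 in DMSO (SE 0.09, adjusted p 0.399) and 0.30 under JQ1 (SE 0.09, adjusted p 0.0591) by the edgeR test. The second value passed with DESeq2 (adjusted p 0.0287), without a filter on low counts (0.0283) and without knockout JQ1 replicate 1 (0.0121). Without knockout JQ1 replicate 3, the highest library, the knockout difference under JQ1 was 0.17 on the log2 scale and did not pass.

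VAV1 and RAC2, both better known from blood cells, were too scarce to be tested after the filter on low counts. VAV1 had from 0 to 3 rounded counts in a library, 7 in all 6 wild-type libraries together and 10 in the 6 knockout libraries. RAC2 had 8, 8 and 4 counts in wild-type DMSO and 5, 2 and 1 in wild-type cells with JQ1, but 1, 0 and 1 in knockout DMSO and 0, 0 and 1 in knockout JQ1. In total 28 counts fell in wild type and 3 in the knockout. Without the filter, edgeR gave RAC2 an adjusted p of 0.0767 for the knockout effect in DMSO. At this depth no difference of either gene passed the threshold. RAC1, the ubiquitous member, was at 218, 213 and 209 CPM in wild-type DMSO, 221, 225 and 222 in wild-type cells with JQ1, 211, 211 and 208 in knockout DMSO and 215, 205 and 226 in knockout JQ1. Its log2 fold change with JQ1 was 0.06 in wild type (95% interval -0.04 to 0.17) and 0.04 in the knockout, and the knockout effect was -0.02 in DMSO and -0.05 under JQ1, none past the threshold (edgeR adjusted p 0.352 to 0.868). The direction of the JQ1 values turned when only library totals were used for scaling (-0.07 and -0.08).

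PREX1 was the exchange factor that rose most with JQ1 among the members. PREX1 is activated by phosphoinositides and the beta-gamma subunits of G proteins. It was at 91.8, 92.4 and 93.0 CPM in wild-type DMSO and 169.8, 157.6 and 148.4 with JQ1, and at 87.5, 96.2 and 99.9 in knockout DMSO and 150, 153 and 206 with JQ1. All JQ1 libraries lay above all DMSO libraries, and the genotypes overlapped in each treatment. The edgeR test gave a rise of 1.72-fold in wild type (log2 fold change 0.78, SE 0.10, adjusted p 3.16e-05) and of 1.79-fold in the knockout (0.84, SE 0.10, adjusted p 1.33e-05). Their difference was 0.06 (95% interval -0.24 to 0.37, adjusted p 0.946). Without knockout JQ1 replicate 3, the highest library, the rise in the knockout was 0.68 and the difference -0.10.

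DOCK4 fell with JQ1 and was higher in the undrugged knockout. DOCK4 is an exchange factor with activity on RAC1 and RAP1. It was at 68.4, 64.6 and 67.5 CPM in wild-type DMSO and 51.2, 50.0 and 52.8 with JQ1, and at 95.9, 92.3 and 99.4 in knockout DMSO and 54.7, 56.3 and 55.4 with JQ1. No 2 groups overlapped, and knockout DMSO was highest. By the edgeR test the knockout without drug was 1.43-fold higher (log2 fold change 0.52, SE 0.05, adjusted p 1.94e-05), a call kept in all 20 alternative analyses. JQ1 lowered DOCK4 by 0.38 on the log2 scale in wild type (adjusted p 7.74e-05) and by 0.79 in the knockout (adjusted p 5.43e-08). Under JQ1 the genotype difference was 0.11 (SE 0.05, adjusted p 0.274). The difference between the JQ1 responses was -0.41 (SE 0.08) with an adjusted p of 0.0612, which missed the threshold. It passed with DESeq2 (7.05e-05), without the low-count filter (0.0371) and without knockout JQ1 replicate 3 (0.0232), and over 19 alternatives the adjusted p ran from 7.05e-05 to 0.273. The direction of the difference was negative in all 19. DOCK4-AS1, an antisense gene inside DOCK4, also fell with JQ1 (-0.77 in wild type and -0.63 in the knockout, adjusted p 0.0159 and 0.0401). In DMSO the antisense gene averaged 1.58 CPM in wild type (SD 0.252) and 1.66 CPM in the knockout (SD 0.234). The library kit marks strand, but whether the counting used it is not given in the sources used here. How far reads of this pair were mixed was not tested.

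DOCK1, the partner of ELMO proteins in cell migration and engulfment, also fell with JQ1. It was at 116, 119 and 121 CPM in wild-type DMSO, 101.2, 100.5 and 96.7 in wild-type cells with JQ1, 122, 119.9 and 124 in knockout DMSO and 85.3, 90.5 and 94.5 in knockout JQ1. The log2 fold change was -0.25 in wild type (SE 0.05, edgeR adjusted p 0.00183) and -0.44 in the knockout (SE 0.05, adjusted p 1.65e-05). The difference of -0.18 between them did not pass (adjusted p 0.527), nor did the knockout effect in DMSO (0.04, adjusted p 0.757). Under JQ1 the knockout libraries lay below the wild-type libraries (-0.14, adjusted p 0.129), a call that passed only without knockout JQ1 replicate 3 (0.0298).

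TIAM1 and TIAM2, named for T-lymphoma invasion and metastasis, moved in opposite directions with JQ1 in wild type. TIAM1 was at 66.8, 69.4 and 67.2 CPM in wild-type DMSO and lay above that in the 9 other libraries, at 86.7, 84.9 and 79.6 in wild-type cells with JQ1, 77.2, 79.9 and 81.8 in knockout DMSO and 76.99, 84.0 and 83.7 in knockout JQ1. It rose with JQ1 in wild type (log2 fold change 0.30, SE 0.06, edgeR adjusted p 8.44e-04), and the value in the knockout was 0.04 (95% interval -0.09 to 0.16). In DMSO the knockout was higher by 0.23 (adjusted p 0.0206). That call was lost with library totals only (0.074), without the low-count filter (0.0569) and on leaving out replicate 3 of knockout DMSO (0.0775) or replicate 1 (0.0751) or 3 (0.0681) of wild-type DMSO. The difference between the TIAM1 responses, -0.27, did not pass (adjusted p 0.325, and 0.0452 with DESeq2). TIAM2 was at 23.6, 22.5 and 21.3 CPM in wild-type DMSO and 14.4, 13.9 and 14.6 with JQ1, and at 18.3, 19.1 and 19.3 in knockout DMSO and 12.2, 14.6 and 14.5 with JQ1. JQ1 lowered TIAM2 by 0.64 on the log2 scale in wild type (SE 0.08, adjusted p 2.85e-05) and by 0.46 in the knockout (SE 0.08, adjusted p 5.59e-04). The knockout effect on TIAM2 in DMSO was -0.25 (adjusted p 0.0858), with all knockout libraries below the wild-type libraries. A fit of the DMSO libraries alone gave 0.0431, and leaving out replicate 3 of knockout JQ1 gave 0.0446, both past the threshold.

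**Figure D3:**
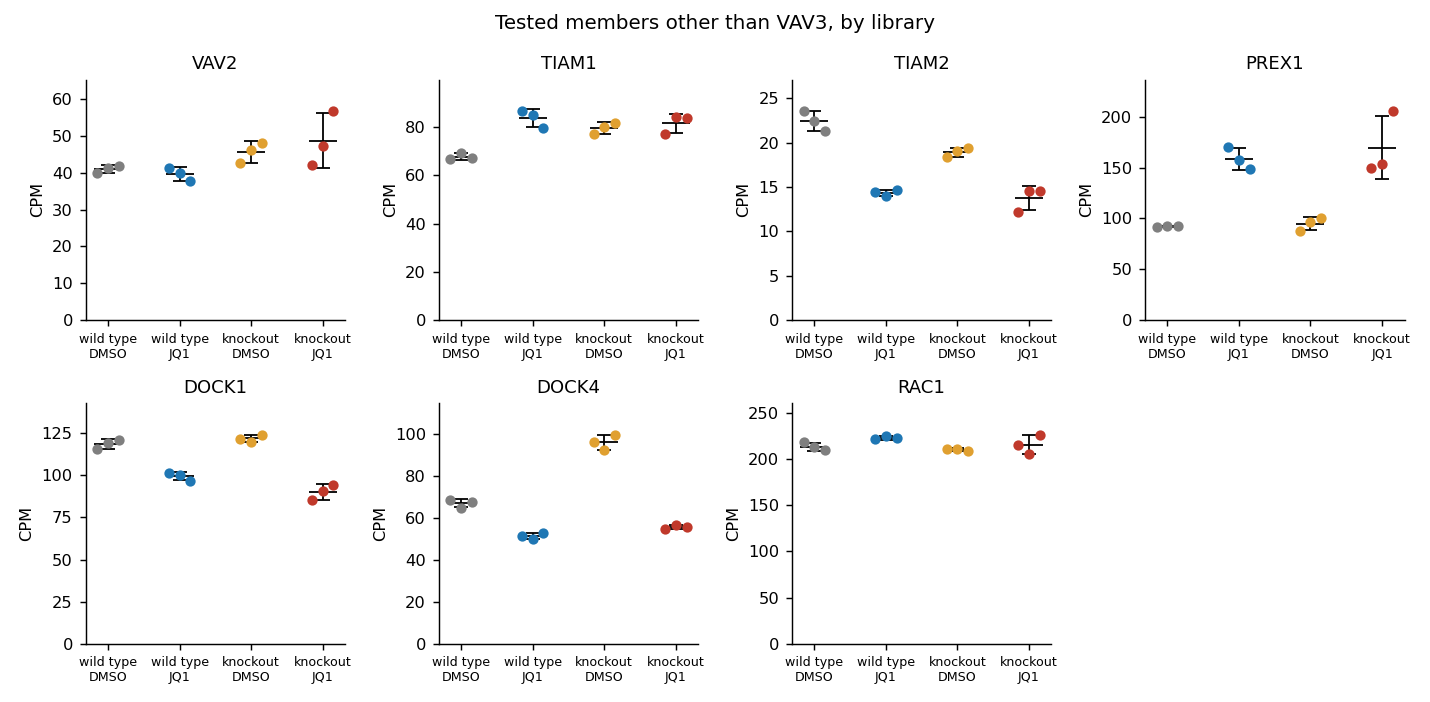
Levels of VAV2, TIAM1, TIAM2, PREX1, DOCK1, DOCK4 and RAC1 in each library (points, CPM, axes from 0) for the 4 groups, with the mean and SD of 3 libraries as bars. PREX1 is higher and TIAM2, DOCK1 and DOCK4 are lower in the JQ1 libraries of both genotypes, and DOCK4 is highest in knockout DMSO.

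Over the 7 tested members other than VAV3, JQ1 changed 5 in wild type (2 higher and 3 lower), where 33.1% of all 21698 tested genes passed the same threshold, an adjusted p of 0.05. In the knockout it changed 4 (1 higher and 3 lower) against 34.4% of all genes. The knockout changed 2 in DMSO, DOCK4 and TIAM1, both higher, against 7.92% of all genes. Under JQ1 it changed 0 by edgeR, against 8.57% of all genes, with 2 at an unadjusted p under 0.05 and 1 by DESeq2. The interaction called 0 of the 7 by edgeR, against 0.134% of all genes, with 3 at an unadjusted p under 0.05 and 2 by DESeq2. The median log2 fold change of the 7 was -0.05 with JQ1 in wild type and 0.04 in the knockout, beside -0.03 and -0.00 over all tested genes. Many genes separate the groups at this size: the libraries of 2 groups did not overlap for 50.4% of genes with JQ1 in wild type, 42.3% with JQ1 in the knockout, 29.6% for the knockout in DMSO and 23.1% for the knockout under JQ1.

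**Figure D4:**
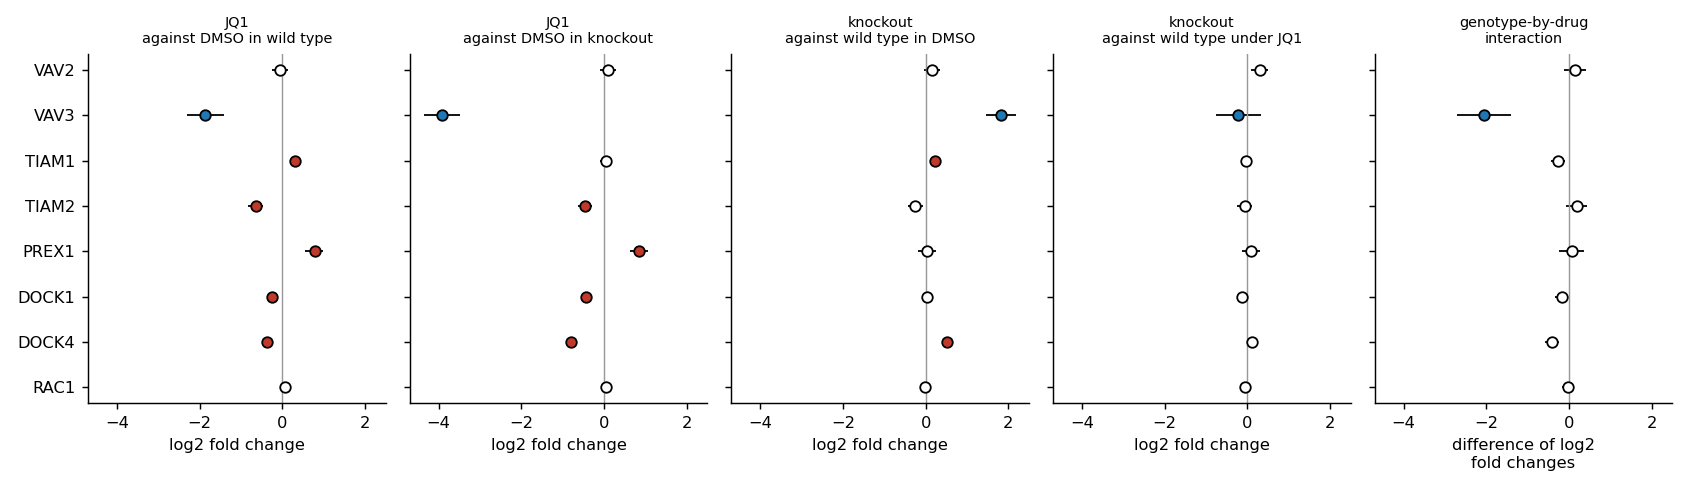
Log2 fold change and 95% interval of 8 members in the 4 comparisons and the interaction, with red for an adjusted p under 0.05, white for members that did not pass and blue for VAV3, which was not tested. Because these same libraries chose VAV3, its intervals describe a spread and are not a test. VAV3 lies farthest from 0 in 4 of the 5 panels, at -1.87, -3.92, 1.83 and -2.06, and among the others PREX1 lies highest with JQ1 in both genotypes.

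To compare levels between genes, mean CPM was divided by the length of the longest protein-coding transcript in GENCODE release 29. In wild-type DMSO the order was RAC1 (91.7 ± 1.86 CPM per kb), DOCK1 (17.4 ± 0.416), PREX1 (13.9 ± 0.0895), TIAM1 (9.42 ± 0.198), DOCK4 (8.36 ± 0.247), VAV2 (8.04 ± 0.208), TIAM2 (3.21 ± 0.161), VAV3 (0.716 ± 0.0905), RAC2 (0.142 ± 0.0607) and VAV1 (0.0109 ± 0.00144), with SD and n = 3 each. DOCK4 and VAV2 differed by less than the sum of their SDs, and the other neighbours by more. In knockout DMSO VAV3 reached 2.55 ± 0.295 CPM per kb, beside 2.71 ± 0.0748 for TIAM2. With JQ1 PREX1 was the exchange factor with the highest level per length, at 23.9 ± 1.62 in wild type and 25.6 ± 4.70 in the knockout. The lengths may differ from those of the transcripts present, above all for VAV3.

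Other genes around RAC, in 4 lists, were examined, and the lists were written with earlier results of these data known. Of 31 other RAC exchange factors and ELMO partners tested, JQ1 changed 14 in wild type (6 higher, 8 lower; 33.1% of all genes) and 18 in the knockout (7 higher, 11 lower; 34.4% of all genes). Their median log2 fold changes were -0.06 and -0.20, beside -0.03 and -0.00 over all tested genes. ARHGEF6, a RAC and CDC42 exchange factor that binds PAK kinases, fell from 35.01 ± 0.92 to 18.5 ± 0.534 CPM in wild type and from 34.4 ± 0.69 to 14.1 ± 0.68 CPM in the knockout (SD, n = 3). Its log2 fold changes were -0.92 and -1.29 (edgeR adjusted p 8.11e-08 and 2.92e-09). ELMO1, a partner of DOCK1, fell by 0.63 on the log2 scale in wild type and by 1.07 in the knockout, whereas ELMO2 rose by 0.73 and 0.61. DOCK6 fell by 0.59 in wild type and by 1.13 in the knockout. In DMSO the knockout changed 5 of the 31 (7.92% of all genes), with FARP1 higher (0.38) and DOCK10 (-1.09), ARHGEF7 (-0.29), MCF2 (from 19 to 26 counts per library to 0 to 6) and RASGRF1 (from 11 to 25 counts to 0 to 4) lower. Under JQ1 it changed 7 (8.57% of all genes), all lower, among them DOCK10 (-1.36), ELMO1 (-0.41) and ARHGEF6 (-0.39). That count was 12 without the low-count filter and 10 by DESeq2. With library totals as the only scaling, the JQ1 split was 3 higher and 9 lower in wild type and 3 and 14 in the knockout. The interaction called 0 of the 31 by edgeR, with 7 at an unadjusted p under 0.05 and 2 by DESeq2. The edgeR count was 1 without the low-count filter and 1 without knockout JQ1 replicate 3.

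The list of proteins that turn RAC off or hold it inactive had 17 members tested. JQ1 changed 12 in wild type (4 higher, 8 lower; 33.1% of all genes) and 10 in the knockout (4 higher, 6 lower; 34.4% of all genes), with a median of -0.32 in both, beside -0.03 and -0.00 over all tested genes. ARHGAP31, a GTPase-activating protein for RAC1 and CDC42, fell by 0.59 in wild type and by 0.71 in the knockout, and was higher in the knockout in DMSO (0.32, edgeR adjusted p 0.00178) and under JQ1 (0.20, adjusted p 0.0439). ARHGDIG, a dissociation inhibitor, fell from 42 to 47 counts per library in wild-type DMSO to 2 to 4 with JQ1, and from 19 to 45 to 1 to 3 in the knockout. SRGAP2 rose by 0.38 in wild type and by 0.33 in the knockout, but it has near-identical copies among which reads may be split. ARHGAP24 fell by 0.59 in wild type and by 0.84 in the knockout. CHN2, the RAC GTPase-activating protein beta-chimaerin, was higher in the knockout in DMSO (1.38, adjusted p 0.00138) and under JQ1 (1.32, adjusted p 0.00314). It had 16 to 35 counts per library in wild-type DMSO and 48 to 63 in knockout DMSO. With JQ1 it had 14 to 23 and 31 to 51. Its factor, divided by the library's median factor, averaged 1.22 in wild-type DMSO and 0.865 in knockout DMSO. With JQ1 this ratio averaged 0.890 in wild type (SD 0.493) and 1.27 in the knockout (SD 0.218). ARHGAP25 had 21 to 40 counts per library in wild-type DMSO, 3 to 6 in wild-type JQ1, 0 to 3 in knockout DMSO and 0 in all 3 knockout JQ1 libraries. It was called lower with JQ1 in wild type (edgeR adjusted p 8.89e-04). With library totals only, the wild-type JQ1 split was 3 higher and 10 lower. The knockout calls were 3 in DMSO (2 higher, 1 lower; 7.92% of all genes), which became 6 without knockout JQ1 replicate 3, and 3 under JQ1 (2 higher, 1 lower; 8.57% of all genes). The latter count fell to 1 with the replicate number as a block and with only the groups compared. It was also 1 with limma on the normalized signal and with the authors' factors. The same count of 1 came when any of knockout JQ1 replicates 1 and 2 or the 6 wild-type libraries was left out.

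Of 26 tested RAC family and effector genes, JQ1 changed 10 in wild type (9 higher, 1 lower) and 11 in the knockout (7 higher, 4 lower), near the shares of 33.1% and 34.4% of all genes. The medians were 0.14 and 0.03. This split depended on the scaling, with 4 higher and 3 lower in wild type and 4 and 9 in the knockout under library totals only, and the wild-type count was 6 without wild-type DMSO replicate 3. CFL1, the actin-severing protein cofilin, rose by 0.60 and 0.58 in wild type and knockout (adjusted p 9.09e-05 and 9.33e-05). BAIAP2 rose by 0.76 and 0.83, CDC42 by 0.26 and 0.33 and RHOG by 0.41 and 0.34. RAC3, the remaining RAC gene, fell by 0.49 in wild type and by 0.79 in the knockout (adjusted p 0.0126 and 4.16e-04), in the opposite direction to these. The knockout effect on this list was led by PAK3, a RAC-activated kinase, which went from 1.00 ± 0.0447 to 3.79 ± 0.309 CPM in DMSO (SD, n = 3). Its difference was 1.91 on the log2 scale in DMSO (edgeR adjusted p 2.84e-06) and 1.80 under JQ1. CYFIP2 (0.45) and CYFIP1 (0.22), subunits of the WAVE complex that acts below RAC, were also higher in the DMSO knockout. Under JQ1 BRK1 was higher (0.27) and IQGAP1 lower (-0.20). The 3 calls in DMSO (7.92% of all genes) became 5 without knockout JQ1 replicate 3, and the 3 calls under JQ1 (8.57% of all genes) became 1 on leaving out replicate 2 of knockout JQ1 or replicate 1 or 3 of wild-type JQ1.

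Of 20 tested kinases and adaptors upstream of VAV proteins, JQ1 changed 11 in wild type (7 higher, 4 lower; 33.1% of all genes) and 11 in the knockout (6 higher, 5 lower; 34.4% of all genes). With library totals only, the wild-type split was 2 higher and 6 lower. PDGFRB, a receptor tyrosine kinase, fell by 1.41 and 1.83 in wild type and knockout, and the kinase SRC by 0.77 and 0.99. PIK3R1, a regulatory subunit of PI3-kinase, rose by 0.72 and 0.53. The knockout changed 1 in DMSO, against 7.92% of all genes. This was the receptor gene ROS1, which had 11 to 14 counts per library in wild-type DMSO and 0 to 1 in knockout DMSO. That count was 0 by DESeq2 and in 5 of the fits with 1 library left out, those lacking replicate 1 of knockout DMSO or replicate 1 or 3 of either wild-type group, and 3 without knockout JQ1 replicate 3. Under JQ1 it changed 4 (8.57% of all genes), all lower: PDGFRB (-0.83), SRC (-0.45), EGFR (-0.33) and CBLB (-0.32). That count was 1 without knockout JQ1 replicate 1 or wild-type JQ1 replicate 1 and 2 without wild-type JQ1 replicate 2. In the 3 lists after the exchange factors the interaction called 0 genes by edgeR and 0 by DESeq2, with 0, 4 and 0 at an unadjusted p under 0.05. Without knockout JQ1 replicate 3, edgeR called 1 gene of the RAC family and effector list.

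**Figure D5:**
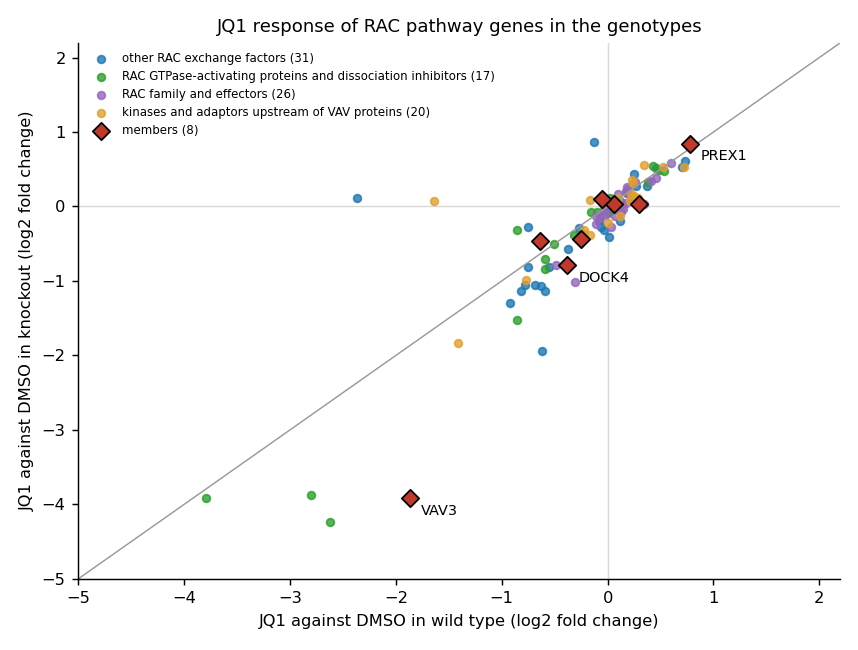
Log2 fold change with JQ1 in wild type (x axis) against that in the knockout (y axis) for the genes of the 4 lists (coloured points) and 8 members (red diamonds), with the line of equal response; the comparisons share no libraries. VAV3 lies at -1.87 and -3.92, below the line, and PREX1 at 0.78 and 0.84, close to it. Some points far below 0 on both axes, such as ARHGAP25 and ARHGDIG, are genes with few or no counts under JQ1, whose fitted values depend on the prior count. VAV3 itself had 20 to 40 counts per library in wild-type JQ1 and 15 to 28 in knockout JQ1. PDGFRB, also below 0 on both axes, had 98 to 146 and 54 to 63.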

How the data were processed

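RNA depleted of ribosomal RNA was sequenced from 12 libraries, 3 in each of 4 groups. Per the submitters' processing notes, the tools were Trim Galore, cutadapt, FastQC, MultiQC, kallisto and DESeq2, with build GRCh38.p10; their roles and settings are not given in the sources used here. Estimated counts stand in one table the authors deposited; a second deposited table holds a normalized signal for 32828 symbols. The estimated counts were rounded, so the count test planned for raw counts was run on rounded values. Genes passed edgeR's filterByExpr, libraries were scaled by TMM, and a quasi-likelihood model with 1 term per group was fitted to 21698 genes (edgeR 4.0.16, R 4.3.3). Benjamini-Hochberg adjustment ran over all of them, with a threshold of 0.05. CPM are TMM-scaled. Other settings used limma 3.58.1 (pseudocount 1) and DESeq2 1.42.0. The code was checked on simulated counts. The members and gene lists were chosen with earlier results of these data known; the named genes of a list are the 3 with the smallest adjusted p among those called, while MCF2, RASGRF1, CBLB and the neighbours of VAV3 were added after their values were seen.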

Additional observations from a re-analysis of the deposited data

Results flagged for a closer look

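The JQ1 response of VAV3 differed between the genotypes by -2.06 on the log2 scale (knockout minus wild type, SE 0.31). VAV3 fell from 3.57 ± 0.451 to 0.972 ± 0.261 CPM in wild type and from 12.7 ± 1.47 to 0.838 ± 0.246 CPM in the knockout (SD, n = 3). This difference is what chose the gene, so it is listed without a test.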

How the results depend on the processing

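Member fold changes numbered 792 under 8 other settings or with 1 of 12 libraries left out. Of these, 755 stayed the same, 5 lost and 10 gained a call, 6 moved and 16 turned direction. For tested members, the same means an unchanged direction and side of the threshold. For VAV3, which was not tested, it means an unchanged direction with a shift smaller than the SD within groups. Moved, used for VAV3 only, means a larger shift in the same direction. The cause of the changes was not tested. With library totals only, which shifted the median of all genes by -0.13 (wild type) and -0.12 (knockout) for JQ1, RAC1 read -0.07 and -0.08 with JQ1 in wild type and knockout, VAV2 -0.02 and TIAM1 -0.08 with JQ1 in the knockout, and PREX1 and DOCK1 -0.01 in the DMSO knockout, where 1 member was called. RAC1 read 0.02 there with limma on the normalized signal and with the authors' factors. Without the low-count filter 1 member was called in the DMSO knockout, 1 in the knockout under JQ1 and 1 for the interaction; DESeq2 called 1 and 2 in the latter comparisons. VAV3 changed with JQ1 by -2.26 (wild type) and -4.65 (knockout), difference -2.40, with limma, and by -2.24 and -4.67, difference -2.43, with the authors' factors. With 1 library left out, members called were 5 to 5 and 4 to 4 with JQ1 in wild type and knockout, 1 to 3 in the DMSO knockout, 0 to 1 under JQ1 and 0 to 1 for the interaction. VAV3 then ran from -2.09 to -1.72, -4.10 to -3.72, 1.77 to 1.95, -0.40 to -0.00 and -2.23 to -1.83. Directions also turned for PREX1 (-0.00 to 0.10 for the knockout in DMSO, -0.07 to 0.18 under JQ1, -0.10 to 0.14 for the interaction), TIAM1 and TIAM2 (-0.07 to 0.00 and -0.10 to 0.02 for the knockout under JQ1), VAV2 (-0.03 to 0.19 with JQ1 in the knockout) and RAC1 (-0.03 to 0.00 for the knockout in DMSO, -0.06 to 0.01 for the interaction). Genes called for the interaction were 29, but 236 without the filter, 154 with DESeq2 and 8 to 88 with a library left out. Same-numbered replicates did not deviate together (r from -0.115 to 0.0786 in 18 pairs); with the replicate block 5, 4, 2, 0 and 0 members were called and VAV3 read -1.87, -3.92, 1.83, -0.22 and -2.05. With only the groups compared, the effector list had 7 calls with JQ1 in the knockout and 6 in the DMSO knockout. The kinase and adaptor list then had 4 calls in the DMSO knockout. For the knockout under JQ1 the effector list had 1 call and the kinase and adaptor list 1. All genes called went from 1718 to 2619 for the knockout in DMSO and from 1860 to 922 under JQ1. VAV3 under JQ1, VAV1 and RAC2 are limited by their low counts.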
